A study of Mus musculus with 4 samples.

Results

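The genes described here are those of the endoplasmic reticulum (ER) stress response and of the amino acid response. They were chosen by name, as a list of 39 genes, with earlier results of these data known. A probe set that names the gene alone was found for 38 of the 39, out of 22180 genes measured in this way. The probe set for Pdia4, a protein disulfide isomerase, also names Mir704, so Pdia4 was not analysed here. The cells were EO771, a line from a mouse mammary carcinoma, cultured for 24 hours before treatment and with a confluence of 70% as a minimum. A-FABP arrays come from cells given 100 ng/ml recombinant mouse A-FABP, and control arrays from cells given PBS. A-FABP is the adipose fatty acid binding protein, which carries lipids in adipocytes and macrophages and is also found in blood. RNA was biotin-labelled and hybridised to 4 single-colour arrays, 2 per group. Both groups share the 1 cell line, and the labels give no genotype or transgene and no treatment time. Titles name biological replicates, but nothing says that these were separate cultures, so p-values measure only the spread between these arrays, which may be technical. One free-text label of the controls also mentions A-FABP, and the groups here follow the titles, with which the source names and the series design go.

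Secretory and membrane proteins fold in the ER with the help of chaperones, and misfolded proteins are sensed there by IRE1, ATF6 and PERK. IRE1 splices the mRNA of XBP1 and ATF6 is cleaved to a transcription factor, and these factors raise chaperones and the ER-associated degradation machinery. PERK phosphorylates the initiation factor eIF2, which lowers general translation and favours translation of ATF4. ATF4 also serves the amino acid response through the kinase GCN2, and its targets include amino acid transporters, serine and asparagine synthesis enzymes and regulators such as CHOP. The arrays measure mRNA level only, so neither the splicing of Xbp1 nor the phosphorylation of eIF2 was read.

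The branches carry different sequence elements in their promoters, which are shown here because the comparison of chaperones with ATF4 targets follows this division. Promoter windows from RefSeq (GRCm38.p6), 250 bases before to 50 after each annotated start, were found for 35 of the 38 genes. The ER stress response element, searched on both strands as CCAAT and CCACG with 9 bases between them, was found in the windows of 7 of 11 ER chaperone genes and of 0 of 17 ATF4 target genes. Among all 32851 windows of this length, 0.119% hold it. The members' windows had a median GC content of 63%, against 52.7% for all windows. The shares of windows given here and below do not allow for this. The chaperones with a match were Calr, Canx, Creld2, Dnajc3, Hsp90b1, Hspa5 and Pdia6, and outside the chaperones the ubiquitin ligase gene Syvn1 had one. The capitals mark the match, printed with 10 bases on each side in the direction of the gene, and coordinates cover the printed stretch. The Hspa5 match begins 65 bases before the start, at chr2:34772015-34772053 (plus strand). The Calr match lies at chr8:84847065-84847103 (minus strand), that of Pdia6 at chr12:17266481-17266519 (plus strand) and that of Syvn1 at chr19:6046522-6046560 (plus strand).
Hspa5: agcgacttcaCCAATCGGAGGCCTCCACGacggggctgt
Calr: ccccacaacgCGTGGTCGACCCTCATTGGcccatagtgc
Pdia6: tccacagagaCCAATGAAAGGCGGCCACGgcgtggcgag
Syvn1: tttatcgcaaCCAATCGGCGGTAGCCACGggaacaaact
In Calr the element stands on the opposite strand.

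A second form of the element, ATTGG and CCACG with 1 base between them, was found in Herpud1 and Dnajb11, against 0.0365% of all windows. The core of the C/EBP-ATF response element, searched as TGATGNAA on both strands, was found in 4 of 17 ATF4 target genes (Asns, Chac1, Nupr1 and Trib3) and in 0 of 11 chaperones. It is a short motif, and 3.97% of all windows hold it. Herpud1, which encodes an ER membrane protein of the degradation machinery, was the one member with an ER stress element and a C/EBP-ATF core in the same window. Its stretch lies at chr8:94386307-94386397 (plus strand), with the core first and the ER stress element after it, both in capitals. The cores of Chac1 (chr2:119351039-119351066, plus strand), Nupr1 (chr7:126625563-126625590, minus strand) and Asns (chr6:7693215-7693242, minus strand) are given with the same flanks.
Herpud1: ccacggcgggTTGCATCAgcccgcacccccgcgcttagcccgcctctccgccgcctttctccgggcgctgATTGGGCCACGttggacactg
Chac1: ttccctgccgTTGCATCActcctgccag
Nupr1: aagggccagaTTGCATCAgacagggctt
Asns: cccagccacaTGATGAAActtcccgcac
These matches are letters in a window and say nothing of whether a factor was bound.

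The arrays had median log2 values between 5.95 and 6.03. Of the markers that define mammary epithelium, Krt8 was clearly above those medians, at 8.74 to 8.85. Cdh1 lay between 6.20 and 6.39, Krt18 between 5.84 and 6.12 and Epcam between 4.45 and 5.05. The 10 measured markers of that list had a median level of 6.01, with Krt8 the highest. Among markers of other cells, Ptprc (at most 4.58), Pecam1 (5.74 to 5.90) and Adipoq (4.97 to 5.42) lay below the array medians, and Col1a1 lay at 6.66 to 6.89. Other markers in the same lists were bright on all arrays, above Krt8: Cd68 of macrophages at 12.70 to 12.84, Fabp4 of adipocytes at 13.18 to 13.33, Pdgfra and Pdgfrb of fibroblasts at 11.16 to 11.22 and 9.67 to 9.88, and Eng of endothelium at 10.26 to 10.48. These 5 were named after their values were seen. Fabp4 is the gene that encodes A-FABP itself. It was bright without added A-FABP too, at 13.20 and 13.18 with PBS and at 13.33 and 13.29 with A-FABP. The 11 macrophage and leukocyte markers had a mean log2 level of 6.26 and 6.24 on the A-FABP arrays and 6.42 and 6.38 on the controls, and 4 of them were lower at an unadjusted p under 0.05. The 4 were Ptprc, Itgam, Tyrobp and Fcer1g, all dim. At that p, 8.24% of all genes were lower, and 14.8% of genes at levels of 5 to 7. The median difference at those levels was -0.13. Itgam, Tyrobp and Fcer1g lie in that range and Ptprc below it. The 10 mammary epithelium markers had a mean of 6.10 on both A-FABP arrays and 6.24 on both controls, with 0 lower at that p. At that p, 2 of 9 fibroblast markers, 1 of 8 endothelium markers and 0 of 7 adipocyte markers were lower. A lower signal was thus not particular to the macrophage and leukocyte markers. These counts were not tested. The part of the markers of other cells in the results below was not tested. No batch or scan date is given in the labels.

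ER stress and amino acid response genes were well expressed in EO771 cells and differed little between A-FABP and PBS. All 38 lay above the median level of all genes (6.33), from Manf at 6.83 to Hsp90b1 at 12.95, with a median level of 10.05, although signals of different probe sets do not measure relative transcript amounts. Differences, always A-FABP minus PBS on the log2 scale, ran from -0.40 for Ddit4 to 0.30 for Chac1, with a median of 0.02 against -0.01 over all genes. No member passed limma's test at an adjusted p under 0.05, and the members' adjusted p ran from 0.302 to 0.981. The background was the same, with 0% of 41345 probe sets called. Members with an unadjusted p below 0.05 numbered 2 on the lower side (Ddit4 and Ppp1r15a) and 0 on the higher. For all genes the shares were 8.24% lower and 4.81% higher. The lower share came mainly from dim genes: it was 14.8% at levels of 5 to 7, where 1 member lies, and 0.927% among genes at 9 or more, where 32 members and both of these genes lie. So 2 of 38 is below the share over all genes, while 2 of 32 is above that of genes as bright, and no test was made of this count. For 36 of the 38 genes the 95% confidence interval lay inside 1.5-fold in both directions, the exceptions being Chac1 and Ddit4. Over all genes, whose median level is lower, this held for 15969 of 22180. The exact two-sided permutation test has a smallest possible p of 0.33 with 2 arrays against 2. In bulk RNA, fewer cells of a type and less RNA per cell cannot be told apart.

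**Figure D1:**
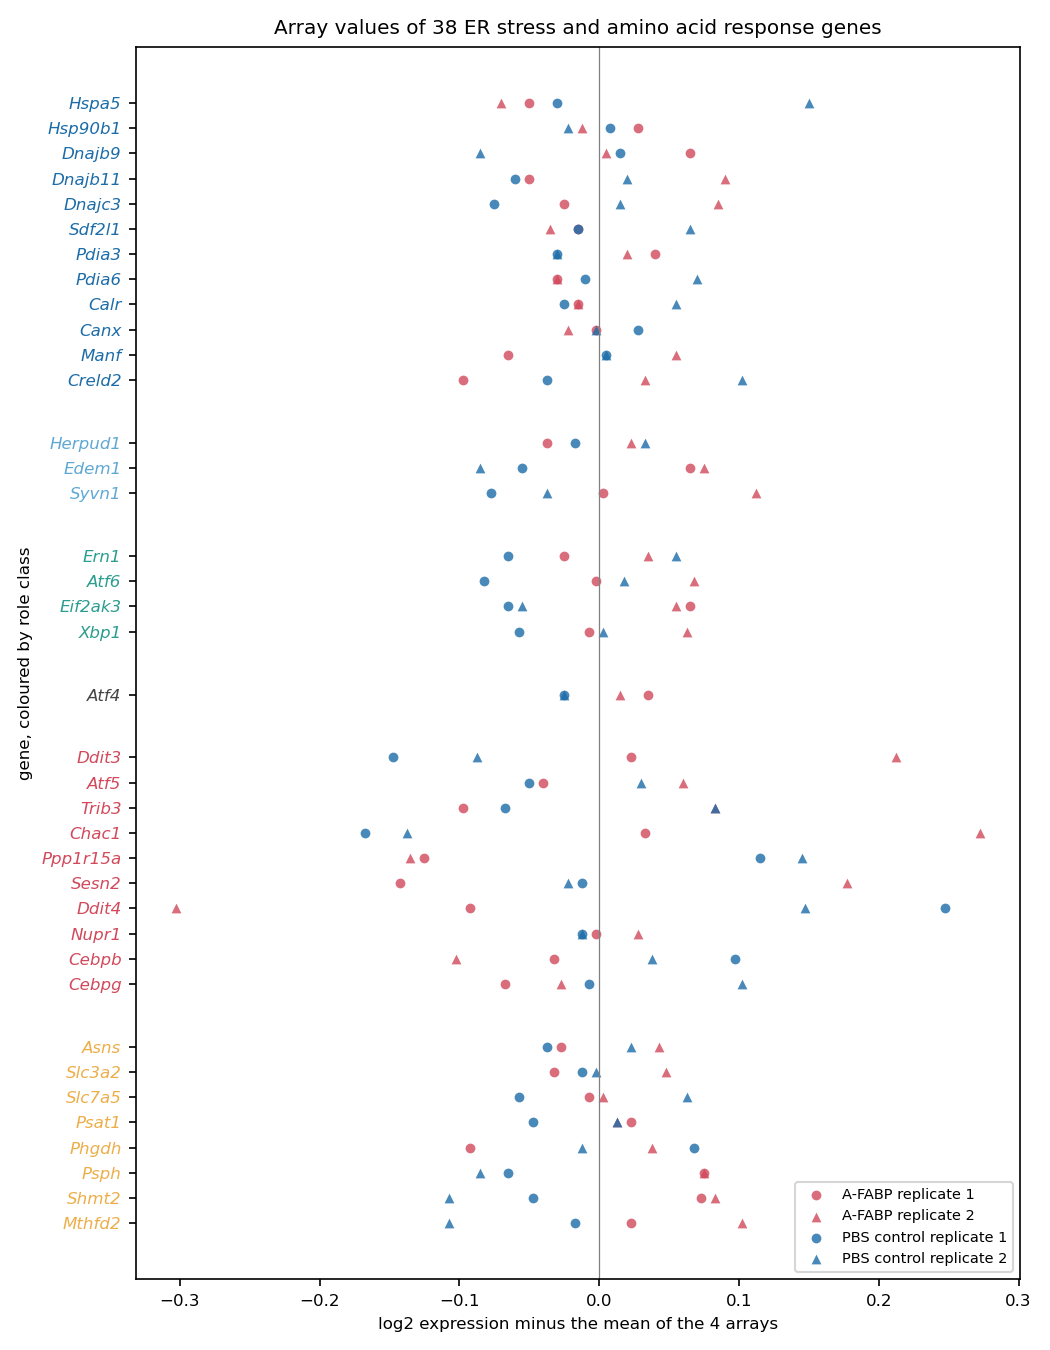
Log2 expression of each of the 38 genes on each array, minus the gene's mean over the 4 arrays (horizontal axis). Genes are on the vertical axis, coloured by role class. Red symbols are A-FABP arrays and blue symbols PBS arrays, circles replicate 1 and triangles replicate 2. The colours overlap in 20 genes and lie apart in 18, of which Ddit4, Ppp1r15a, Chac1 and Ddit3 have the largest differences.

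By SD, arrays of different groups were further apart in these genes than arrays of the same group. The SD of the difference between 2 arrays, over the 38 genes, was 0.0951 for the A-FABP replicates and 0.0718 for the controls. Pairs across groups had 0.106 to 0.160. Over all probe sets the order was the same, at 0.32 and 0.303 within groups and 0.345 to 0.397 across. The median absolute difference over the 38 genes did not keep this order, at 0.0584 and 0.0643 within groups and 0.0555 to 0.0894 across. The A-FABP arrays stood above both controls in 11 members and below both in 7, and in 20 the groups overlapped. The background for such separation was 26.0% of all genes above and 27.5% below. Among the 4532 genes with a mean level of at least 9, to which 32 of the members belong, it was 45.1% above and 14.4% below. Of the 38 differences, 23 lay above 0 and 15 below. This split depended on the scaling, with 32 above and 6 below when each array was centred on its median, and 17 above and 21 below after cyclic loess or repeated quantile normalization. Each of the 12 members at a difference of at least 0.1 in size kept its sign in every setting tried. In all of these 12 the groups did not overlap, so leaving out or reweighting an array could not turn the sign. Changing the variance prior, the filter or the replicate block does not alter a difference. The sign was therefore open to change mainly through the scaling.

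**Figure D2:**
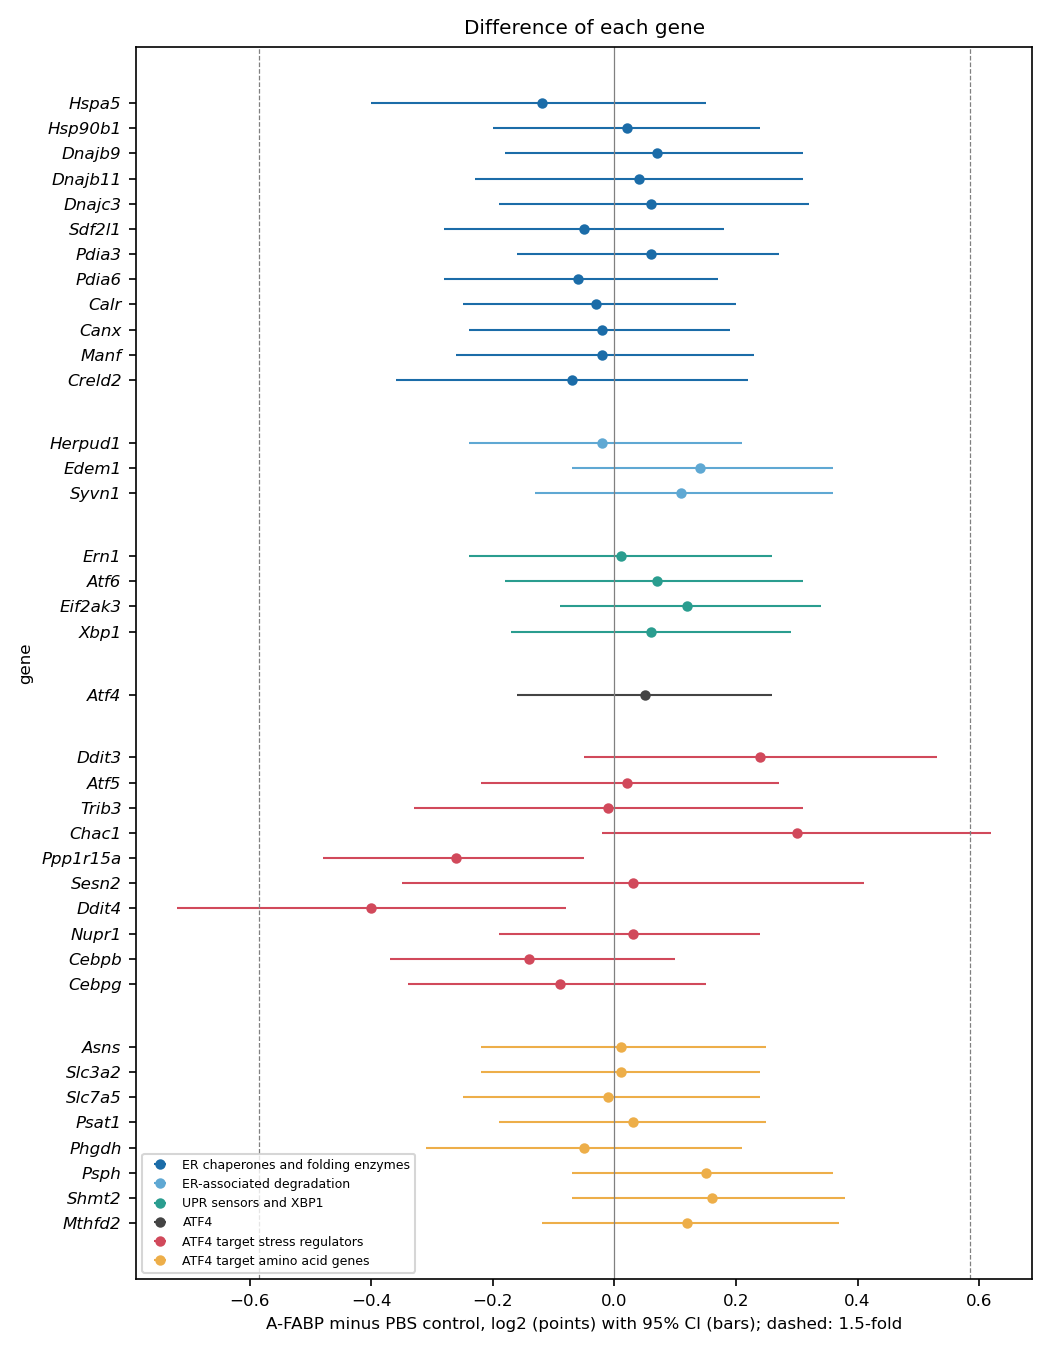
Difference between A-FABP and PBS on the log2 scale (horizontal axis, points) with the 95% confidence interval from the limma fit (bars), for each of the 38 genes (vertical axis), coloured by role class. Dashed lines mark 1.5-fold in either direction. The intervals of Ddit4 and Ppp1r15a lie below 0, and those of Chac1 and Ddit4 reach past 1.5-fold.

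The 12 measured ER chaperones and folding enzymes had differences from -0.12 to 0.07 with a median of -0.02, and 0 passed the test in either direction. Hspa5, which encodes BiP, the main ER chaperone and a standard marker of ER stress, lay at 11.19 and 11.17 with A-FABP and at 11.21 and 11.39 with PBS. The second control stood above the other 3 arrays, which were close together, and the groups came close without overlapping. The difference was -0.12 ± 0.10 (SE; 95% CI -0.40 to 0.15; limma adjusted p = 0.58), and -0.04 without PBS control replicate 2. That array was the highest of the 4 in 5 of the 12 chaperone genes.

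Pdia3, a disulfide isomerase that works with calnexin and calreticulin, lay at 12.02 and 12.00 with A-FABP and at 11.95 on both controls. It was the 1 gene of the class whose A-FABP arrays both lay above the controls, by 0.06 ± 0.08. Pdia6, another disulfide isomerase, lay at 12.40 on both A-FABP arrays and at 12.42 and 12.50 with PBS, a difference of -0.06 ± 0.08. Its order turned with the scaling, to 0.01 when arrays were centred on their medians. Dnajb9, a co-chaperone that binds BiP and IRE1, lay at 9.71 and 9.65 against 9.66 and 9.56, with overlapping groups (0.07 ± 0.09). The remaining 8 genes lay between -0.07 (Creld2) and 0.06 (Dnajc3). They include Hsp90b1, the ER form of HSP90 (0.02), the lectin chaperone genes Calr (-0.03) and Canx (-0.02), the co-chaperone gene Dnajb11 (0.04), Sdf2l1 (-0.05) and the secreted ER stress protein gene Manf (-0.02). The 7 chaperones with an ER stress element in the window had a median of -0.03 and a range of -0.12 to 0.06.

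Of the degradation genes, Edem1 and Syvn1 lay higher with A-FABP and Herpud1 did not, and none passed the test. Edem1, which helps to route misfolded glycoproteins to degradation, lay at 11.75 and 11.76 against 11.63 and 11.60. Replicates of each group were close and the groups did not overlap (0.14 ± 0.08, limma adjusted p = 0.442). It is the 1 member with more than 1 probe set, and the dimmer one, at 6.28 and 6.36 against 6.19 and 6.18, gave the same difference of 0.14 ± 0.08. Syvn1, the ubiquitin ligase HRD1, lay at 9.97 and 10.08 against 9.89 and 9.93, also without overlap (0.11 ± 0.09, adjusted p = 0.564), and at 0.06 without A-FABP replicate 2. Herpud1 lay at 10.52 and 10.58 against 10.54 and 10.59, with the groups interleaved (-0.02 ± 0.08). Of all genes at levels of 9 to 10, where Syvn1 lies, 50.2% stood above without overlap, and the upper quartile was 0.14. At 11 to 12, where Edem1 lies, these were 38.2% and 0.08. Syvn1 was thus inside the quartiles of its level and Edem1 above them.

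The sensors and XBP1 lay slightly above 0 (median 0.06), in 4 of 4 genes, with 0 past the test. Eif2ak3, which encodes PERK, had the clearest separation, at 9.95 and 9.94 with A-FABP against 9.82 and 9.83 with PBS. The difference of 0.12 ± 0.08 (95% CI -0.09 to 0.34, limma adjusted p = 0.491) was several times the gap between replicates, but its SE borrows the spread of other probe sets. Atf6 lay at 11.40 and 11.47 against 11.32 and 11.42, with overlapping groups (0.07 ± 0.09). Xbp1 lay at 11.06 and 11.13 against 11.01 and 11.07, where the lower A-FABP array fell just below the higher control (0.06 ± 0.08). Ern1, which encodes IRE1, lay at 9.05 and 9.11 against 9.01 and 9.13 (0.01 ± 0.09), and its sign turned to -0.05 after cyclic loess. Genes at levels of 9 to 10 had a median difference of 0.06 over the whole array, and genes at 11 to 12 one of 0.02.

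**Figure D3:**
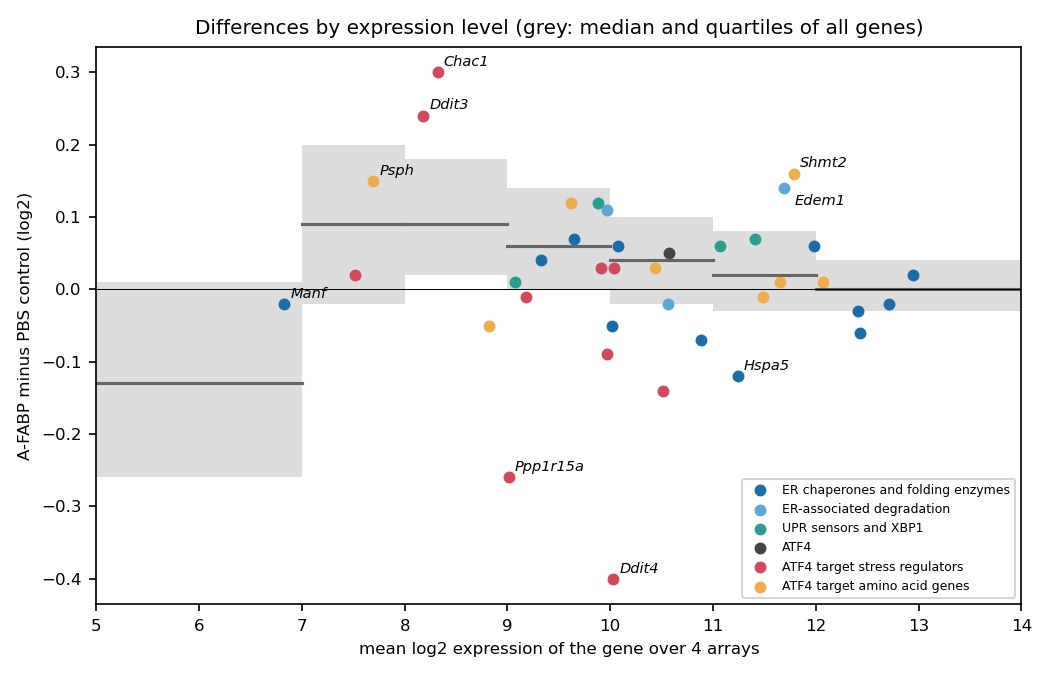
Difference between A-FABP and PBS on the log2 scale (vertical axis) against mean log2 expression over the 4 arrays (horizontal axis) for the 38 genes, coloured by role class. Grey bands span the quartiles, and grey lines the median, of all genes in that range of levels. Of the 38 genes, 24 lie inside the band at their level, among them the sensors and Xbp1. Above it lie 4 (Chac1, Ddit3, Edem1 and Shmt2) and below it 10 (Ddit4, Ppp1r15a, Cebpb, Cebpg, Hspa5, Sdf2l1, Pdia6, Creld2, Trib3 and Phgdh).

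Atf4 itself, the factor that carries the PERK and GCN2 signals, lay at 10.61 and 10.59 with A-FABP and at 10.55 on both controls. The groups did not overlap, and the difference of 0.05 ± 0.08 (95% CI -0.16 to 0.26, limma adjusted p = 0.776) was close to the median of 0.04 for all genes at levels of 10 to 11. Because ATF4 is regulated mainly through translation, its mRNA level is not a measure of its activity.

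The stress regulators among the ATF4 targets held the largest differences of the 38 genes, and these went both ways. The 10 genes had a median of 0.01, with 5 above 0 and 5 below, and quartiles of -0.13 and 0.03. Ddit4, which encodes REDD1, an inhibitor of mTORC1 that also responds to hypoxia and glucocorticoids, lay at 9.94 and 9.73 with A-FABP and at 10.28 and 10.18 with PBS. Both A-FABP arrays were below both controls, and the A-FABP arrays were the further apart. Ddit4 was 1.32-fold lower (-0.40 ± 0.11, 95% CI -0.72 to -0.08, unadjusted p = 0.0259 and limma adjusted p = 0.302), at -0.29 without A-FABP replicate 2 and -0.50 without A-FABP replicate 1. Ppp1r15a, which encodes GADD34, the phosphatase subunit that reverses eIF2 phosphorylation, lay at 8.88 and 8.87 against 9.12 and 9.15. Replicates were close in both groups and the groups lay well apart. Its difference was -0.26 ± 0.08 (95% CI -0.48 to -0.05, unadjusted p = 0.0279 and limma adjusted p = 0.302), which is 1.20-fold lower, and between -0.28 and -0.25 with any 1 array left out. With arrays centred on their medians it was -0.20, with an unadjusted limma p of 0.0731.

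Chac1 and Ddit3 lay on the other side. Chac1, which encodes a glutathione-degrading enzyme strongly induced by ATF4, lay at 8.35 and 8.59 with A-FABP and at 8.15 and 8.18 with PBS. Both A-FABP arrays were higher, the second more so. The difference was 0.30 ± 0.12 (95% CI -0.02 to 0.62, limma adjusted p = 0.343), at 0.18 without A-FABP replicate 2 and 0.42 without A-FABP replicate 1. Ddit3, which encodes CHOP, the proapoptotic factor of prolonged ER stress, lay at 8.20 and 8.39 against 8.03 and 8.09. The order was that of Chac1, with the second A-FABP array highest (0.24 ± 0.10, 95% CI -0.05 to 0.53, adjusted p = 0.375), and 0.14 remained without A-FABP replicate 2. Genes at levels of 8 to 9 had a median difference of 0.09. After removal of the trend of differences on level, Chac1 lay at 0.22 and Ddit3 at 0.16, and Ppp1r15a and Ddit4 at -0.34 and -0.45.

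Of the other 6 regulators, Cebpb and Cebpg, which encode bZIP partners of ATF4, lay lower without overlap of the groups, at -0.14 ± 0.08 and -0.09 ± 0.09, short of the test (limma adjusted p = 0.481 and 0.626). Trib3, a pseudokinase gene and CHOP target, lay at 9.08 and 9.26 against 9.11 and 9.26, so that replicates differed more than groups (-0.01 ± 0.11). Sesn2, a leucine-sensing inhibitor of mTORC1, lay at 9.89 and 10.21 with A-FABP, on either side of the controls at 10.02 and 10.01 (0.03 ± 0.14). Atf5 (0.02) and Nupr1 (0.03) completed the class.

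Of the 8 amino acid genes of the ATF4 programme, 3 lay higher with A-FABP without overlap, namely Shmt2, Mthfd2 and Psph, and in 5 the groups overlapped. That share is not above the 45.1% of genes at levels of 9 or more. None of the 8 passed the test (median 0.02, range -0.05 to 0.16). Shmt2, the mitochondrial serine hydroxymethyltransferase, lay at 11.86 and 11.87 with A-FABP against 11.74 and 11.68 with PBS, with close replicates in the treated group (0.16 ± 0.08, limma adjusted p = 0.425). Mthfd2, the next enzyme of that pathway, lay at 9.64 and 9.72 against 9.60 and 9.51, where the nearest arrays of the groups almost met (0.12 ± 0.09, adjusted p = 0.536; 0.08 without A-FABP replicate 2). Psph, the phosphatase that completes serine synthesis, lay at 7.77 on both A-FABP arrays against 7.63 and 7.61 (0.15 ± 0.08, adjusted p = 0.429).

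The earlier serine enzymes did not share this order. Phgdh, the first enzyme of the pathway, lay at 8.73 and 8.86 against 8.89 and 8.81, with overlapping groups (-0.05 ± 0.09; 0.01 when arrays were centred on their medians), and Psat1, the second, lay at 0.03 ± 0.08. Asns, asparagine synthetase and a classical ATF4 target, lay at 11.63 and 11.70 against 11.62 and 11.68. The groups alternated, and the difference of 0.01 ± 0.08 had an interval of -0.22 to 0.25. Slc7a5, the large neutral amino acid transporter LAT1, lay at 11.48 and 11.49 against 11.43 and 11.55, both A-FABP arrays lying between the controls (-0.01 ± 0.09). Its heavy chain Slc3a2 (CD98) lay at 0.01 ± 0.08.

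Set side by side, ATF4 targets had a median difference of 0.02 over 18 genes and ER chaperones one of -0.02 over 12. The gap between these medians was 0.04. As mean log2 levels, chaperones lay at 10.86 and 10.88 with A-FABP and at 10.86 and 10.90 with PBS, and ATF4 targets at 9.76 and 9.83 against 9.78 and 9.80. In both classes the groups overlapped. The mean of the ATF4 targets minus that of the chaperones can be read only between arrays. It was -1.09 and -1.06 with A-FABP against -1.08 and -1.11 with PBS, again with overlap. The SD between replicates of this gap in means was 0.0239. The gap of the medians was 0.00 after cyclic loess and 0.01 after repeated quantile normalization. The median of the ATF4 targets turned to -0.02 and -0.01 in these settings, and that of the chaperones to 0.05 when arrays were centred on their medians. The chaperones spanned -0.12 to 0.07 and the ATF4 targets -0.40 to 0.30. Among 18 ATF4 targets 6 lay above the controls and 4 below without overlap, and among 12 chaperones 1 and 3. Genes at levels of 9 or more did so in 45.1% and 14.4%, but these shares changed with level. They were 53.2% and 9.65% at 8 to 9, 38.2% and 20.4% at 11 to 12, and 29% and 26.2% at 12 to 14. No test was made of these counts. The probe sets of ATF4 targets were dimmer than those of chaperones (median signal 9.94 against 11.06), and differences of all genes were narrower at higher levels, with quartiles of 0.00 and 0.14 at 9 to 10 and of -0.03 and 0.04 at 12 to 14. The second A-FABP array was the highest of the 4 in 10 of the 18 ATF4 targets.

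**Figure D4:**
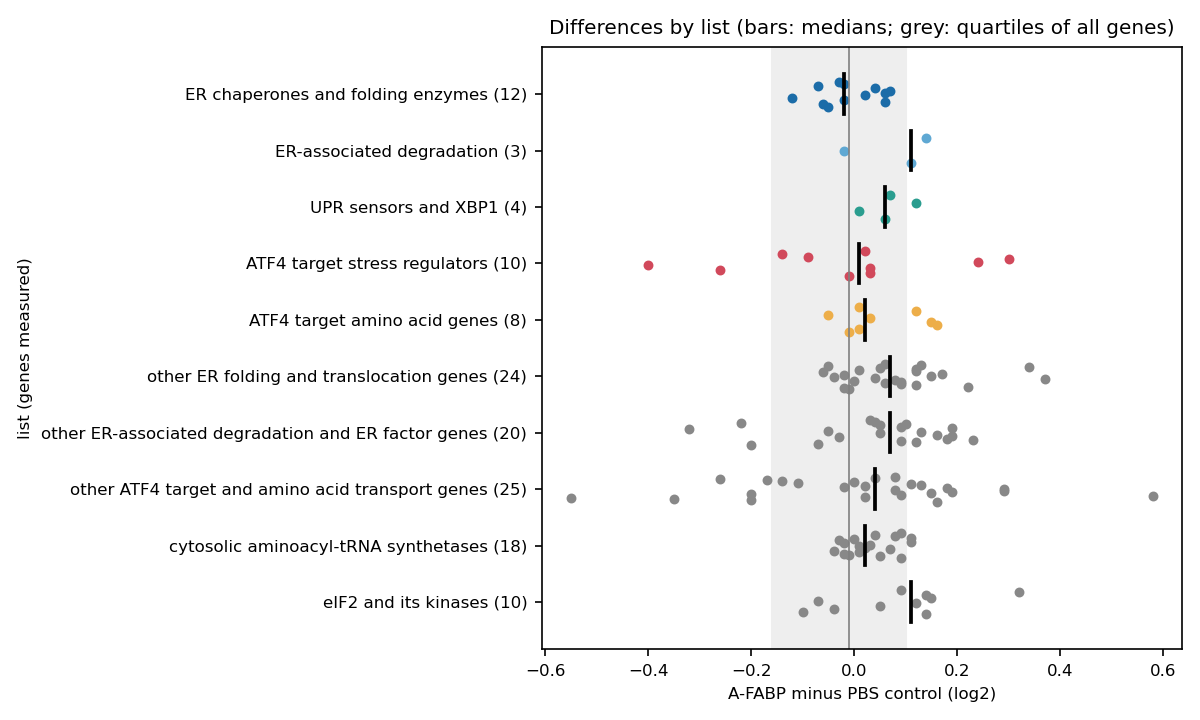
Differences between A-FABP and PBS on the log2 scale (horizontal axis) of the genes of each list (vertical axis, with the number of genes measured). Points are genes, black bars list medians, and the grey band spans the quartiles of all genes around their median of -0.01. The chaperones cluster near 0, and the ATF4 target stress regulators spread from -0.40 to 0.30.

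Other genes of the pathways, from lists that hold no member, were also without a called gene. As background, 4.81% of all genes were higher and 8.24% lower at an unadjusted limma p under 0.05. At levels of 9 or more these shares were 3.31% and 0.927%. They were 10.7% and 2.96% at 7 to 8, and 3.26% and 14.8% at 5 to 7. The median difference of all genes was -0.13 at levels of 5 to 7 and 0.09 at 7 to 8. It was 0.09 at 8 to 9, 0.06 at 9 to 10 and 0.04 at 10 to 11. Of 24 further ER folding and translocation genes, 18 lay above 0 (median 0.07, and 0.04 with the trend on level removed). At an unadjusted p under 0.05 there were 2 higher and 0 lower. These were the translocon subunit gene Sec61b, at 6.92 and 6.82 against 6.51 and 6.50 (0.37 ± 0.09), and the oxidoreductase gene Ero1b, at 7.68 and 7.80 against 7.30 and 7.50 (0.34 ± 0.11). Sec61b thus lies at levels of 5 to 7 and Ero1b at 7 to 8. Txndc11, a thioredoxin domain gene, lay at 0.22 ± 0.08. Sec61b has a second, dimmer probe set at 0.21 ± 0.10. Of 20 further degradation and ER factor genes, 14 lay above 0 (median 0.07, and 0.02 with the trend removed) and 0 had such a p. Sel1l, the partner of the ligase HRD1, lay at 0.18 ± 0.08. Derl2, which encodes a derlin, lay at 0.19 ± 0.08 at its brighter probe set and at -0.13 ± 0.20 at the other. Derl3, another derlin and dim at 5.45 and 5.19 against 5.71 and 5.56, lay at -0.32 ± 0.13.

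Further ATF4 targets and amino acid transporters lay on both sides of 0, as the stress regulators did. The median over 25 genes was 0.04 (0.01 with the trend on level removed), with 16 above 0 and 9 below. At an unadjusted p under 0.05 there were 2 higher and 3 lower, beside the shares of all genes given above. Slc7a11, the cystine transporter, lay at 7.48 and 7.78 with A-FABP against 6.98 and 7.12 (0.58 ± 0.14, unadjusted p = 0.0154), although its second probe set, dim at 3.76 against 3.71, lay at 0.05 ± 0.12. Vegfa, the angiogenic factor, lay at 11.60 and 11.53 against 11.90 and 11.93 (-0.35 ± 0.08). Stc2, a secreted stanniocalcin and dim, lay at 5.96 on both A-FABP arrays against 6.35 and 6.67 (-0.55 ± 0.14). Among all genes, 14.8% were lower at that p at the levels of Stc2 (5 to 7). At those of Slc7a11 (7 to 8), 10.7% were higher. The others past that p were the neutral amino acid transporter gene Slc1a4 (0.29 ± 0.09) and the stress factor gene Atf3 (-0.26 ± 0.08), both named after their values were seen. Of the 18 cytosolic aminoacyl-tRNA synthetases, 12 lay above 0, with a median of 0.02, a highest difference of 0.11 and 0 at an unadjusted p under 0.05. Farsb and Iars (both 0.11) and Yars (0.09) led them. Among 10 genes of eIF2, its exchange factor and its kinases the median was 0.11, and 0.05 with the trend removed. Eif2ak2, the double-stranded RNA kinase PKR, lay at 9.26 and 9.23 against 8.97 and 8.89. Its groups were well apart (0.32 ± 0.08, unadjusted p = 0.0181 and limma adjusted p = 0.296). Eif2ak4, which encodes GCN2, lay at 0.14 ± 0.08, and Ppp1r15b, the constitutive counterpart of Ppp1r15a, at 0.14 ± 0.08.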

How the data were processed

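The deposited table holds the authors' log2 expression values, made with RMA and Partek 6.6 per the submitters' processing notes, for 41345 probe sets on 4 arrays. RMA narrows differences near the background. The genome build was not stated. The platform annotation names 1 gene for 23521 probe sets, and the brightest stood for a gene. All probe sets were fitted together with limma 3.58.1 (lmFit, eBayes; R 4.3.3), with Benjamini-Hochberg adjustment and a threshold of 0.05. The fit was tested on simulated data. The number of arrays limits precision, and detection was not called. Members and lists were chosen with earlier results of these data known. Every array value is shown for 10 key members, for up to 4 per class with the lowest p and, added after their values were seen, for Trib3 and Sesn2. From each list of other genes the 3 with the lowest p were named. Former symbols were updated for Ero1a, Ero1b, Selenok and Mars1. Same-numbered arrays of the groups showed no shared shift (correlation of deviations -0.00889), which cannot show whether they were prepared together. Alternatives covered normalization, filter, variance prior, array weights, probe set choice, repeated rows, the replicate block and each array left out. Motifs were searched with Python 3.11.15.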

Additional observations from a re-analysis of the deposited data

How the results depend on the processing

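The number of members past the adjusted threshold was 0 in every setting run, as was that of probe sets (averaging a gene's probe sets gives no such count). Unadjusted p-values below 0.05 were found for 2 members, against 8 with trend and robust settings of eBayes (5 higher and 3 lower: Edem1, Eif2ak3, Ddit3, Chac1, Shmt2, and Ppp1r15a, Ddit4, Cebpb) and 1 with the replicate number as a block (Ddit4). With median centring the 2 were Chac1, higher (0.36), and Ddit4, lower, while Ppp1r15a (-0.20) had an unadjusted limma p of 0.0731. With the filter on level there were 3, Chac1 joining on the higher side. With 1 array left out it was 0 to 2, being 0 without A-FABP replicate 2, PBS control replicate 1 or PBS control replicate 2. There the lone array of a group is assumed to vary like the others. Shares of all genes at an unadjusted p under 0.05 were counted in the main fit only. The counts of members in the other settings therefore have no background beside them. The chaperone median was 0.05 and the ATF4 target median 0.08 with median centring. The ATF4 target median was -0.02 after cyclic loess and with the trend on level removed, a setting chosen after seeing the data, and -0.02 to 0.05 with 1 array left out. The chaperone median was -0.03 to 0.00 there. The gap between the medians was 0.00 after cyclic loess, 0.01 after repeated quantile normalization and with the trend removed, and 0.01 to 0.05 with 1 array left out. Signs turned for members near 0. With median centring Pdia6 and Phgdh lay at 0.01, Herpud1 at 0.05 and Slc7a5 at 0.06. Ern1 lay at -0.05 after cyclic loess and at -0.06 after repeated quantile normalization or with the trend removed, and Asns at -0.01 after either normalization. With 1 array left out, Herpud1 ranged from -0.04 to 0.01, Phgdh from -0.12 to 0.01, Ern1 from -0.05 to 0.07, Asns from -0.02 to 0.05 and Slc7a5 from -0.07 to 0.05. The cause of these shifts was not tested.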
